A study of Mus musculus with 12 samples.

Results

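The mitochondrial genome transcripts are the 37 genes of the mouse mitochondrial chromosome, chosen as every gene whose Ensembl identifier maps to a symbol beginning with mt-, of 55357 gene identifiers in the count table. They comprise 13 protein genes, 2 ribosomal RNA (rRNA) genes and 22 transfer RNA (tRNA) genes. A minimum-count filter left 31 of them for testing, namely all protein and rRNA genes and 16 tRNA genes. The 6 untested tRNA genes, mt-Tf, mt-Tv, mt-Ts1, mt-Td, mt-Tk and mt-Tt, held between 1 and 86 counts over the 12 libraries together. Where such a gene had 0 counts in a library, a floor of 3 counts allows a level of up to 0.133 to 0.212 CPM, which is counts per 1000000 counts of the library, depending on the library.

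The study sequenced messenger RNA from the hearts of 12 male mice, with 4 groups of 3. The groups were Cd163 knockout mice on a C57BL/6J background after transverse aortic constriction (KO TAC), C57BL/6J wild-type mice after the same operation (WT TAC), knockout mice after sham surgery (KO sham) and wild-type mice after sham surgery (WT sham). Cd163 encodes the haemoglobin scavenger receptor of tissue macrophages, and TAC narrows the aorta to put a pressure load on the heart. Surgery took place at 8 weeks of age in all animals, with a 27-gauge needle setting the width of the tied aorta, and the sham operation left the tie out. The knockout is not described as limited to a cell type, and the sources used here give no time from surgery to collection. The tissue is labelled heart, which holds several cell types, so fewer cells of a type and less RNA per cell cannot be told apart. No label ties a library to a named animal, so any p-value here reflects only how these libraries vary, which may in part be technical.

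The mitochondrial genome is a small circle transcribed along both strands into long precursors. The precursors are cut mainly at the tRNA genes, which stand like punctuation between the other genes, and the mRNAs then receive short poly(A) tails. Its protein genes encode core subunits of respiratory complexes I, III and IV and of ATP synthase, while the rRNAs and tRNAs serve the ribosomes inside the organelle. All other proteins of the organelle come from nuclear genes. Heart muscle is dense in mitochondria, and their transcripts make up much of its polyadenylated RNA.

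The tRNA genes below are shown because mt-Ta, the alanine tRNA gene, changed relative to the mitochondrial mRNAs, and the others are its neighbours in the cluster it lies in. Sequences are from GENCODE M21 transcripts on GRCm38, read 5′ to 3′ on the gene's own strand, with the anticodon in capitals. mt-Ta lies at chrM:5018-5086, mt-Tn (asparagine) at chrM:5089-5159, mt-Tc (cysteine) at chrM:5192-5257 and mt-Ty (tyrosine) at chrM:5260-5326, all on the minus strand. mt-Tw (tryptophan), at chrM:4950-5016, lies beside mt-Ta on the plus strand.
mt-Tw: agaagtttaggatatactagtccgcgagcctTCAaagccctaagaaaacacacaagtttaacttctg
mt-Ta: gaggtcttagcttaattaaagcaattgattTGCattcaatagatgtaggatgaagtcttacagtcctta
mt-Tn: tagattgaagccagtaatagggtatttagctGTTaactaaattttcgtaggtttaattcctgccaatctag
mt-Tc: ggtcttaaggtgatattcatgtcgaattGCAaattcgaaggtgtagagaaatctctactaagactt
mt-Ty: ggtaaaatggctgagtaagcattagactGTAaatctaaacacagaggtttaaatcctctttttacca

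The glutamine and methionine tRNA genes, mt-Tq at chrM:3772-3842 on the minus strand and mt-Tm at chrM:3845-3913 on the plus strand, are shown because they were called lower relative to the mitochondrial mRNAs in TAC against sham KO hearts, in calls that single libraries decided.
mt-Tq: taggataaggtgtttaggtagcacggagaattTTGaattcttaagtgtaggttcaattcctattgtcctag
mt-Tm: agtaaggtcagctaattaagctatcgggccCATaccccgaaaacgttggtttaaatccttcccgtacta
Among the protein genes, mt-Atp8 and mt-Atp6 share 43 bases at chrM:7927-7969 on the plus strand, shown because counts in it cannot be given to one of them. Capitals mark the start codon of mt-Atp6 and the stop codon of mt-Atp8.
mt-Atp8 and mt-Atp6 overlap: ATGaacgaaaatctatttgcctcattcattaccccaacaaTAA
mt-Nd4l and mt-Nd4 share 7 bases on one strand, and mt-Nd5 and mt-Nd6 share 14 bases on opposite strands. The strand setting of the counting is not given, so reads from opposite strands cannot be told apart. Both strands are transcribed into long precursors, so this holds along whole genes, mt-Nd6 and the minus-strand tRNA genes included.

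KO TAC libraries held 14150109 to 16913259 counts and WT TAC libraries 16671952 to 18608925, while KO sham libraries held 15804176 to 22602225 and WT sham libraries 19987174 to 22400473. Cd163 stood at 3.32 to 3.53 CPM in KO TAC against 14.02 to 35.5 CPM in WT TAC, and at 2.91 to 5.09 CPM in KO sham against 13.6 to 15.4 CPM in WT sham libraries. KO sham replicate 1 stood with the KO TAC libraries. Over tested genes outside the mitochondrial genome, its rank correlation with the KO TAC libraries was 0.985 to 0.990, and that with KO sham replicates 2 and 3 was 0.927 and 0.935. The counts of calls below are therefore given with and without it. WT TAC replicate 1 was as like the KO TAC libraries, at 0.966 to 0.971, as the other WT TAC libraries, at 0.967 to 0.968. All 10 markers of cardiomyocytes were detected in the tissue labelled heart.

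Mitochondrial genome transcripts took the largest share of the library in KO TAC hearts and in 1 sham heart. In order of replicate number, they made up 51.3, 48.4 and 44.0% of the counts in KO TAC libraries, against 24.8, 31.5 and 32.5% in WT TAC libraries. After sham surgery they made up 51.0, 31.6 and 30.5% in KO libraries, against 36.1, 35.1 and 36.9% in WT libraries. Replicates are numbered 1, 3 and 5 in the TAC groups and 1, 2 and 3 in the sham groups, and values below follow that order. Every KO TAC library lay above every WT TAC library, and every WT TAC library lay below every WT sham library. KO sham replicate 1 lay within the KO TAC range, while the other KO sham libraries lay below every WT sham library. The 95% Wilson interval of each share was at most 0.0521 percentage points wide, which covers counting error only.

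**Figure D1:**
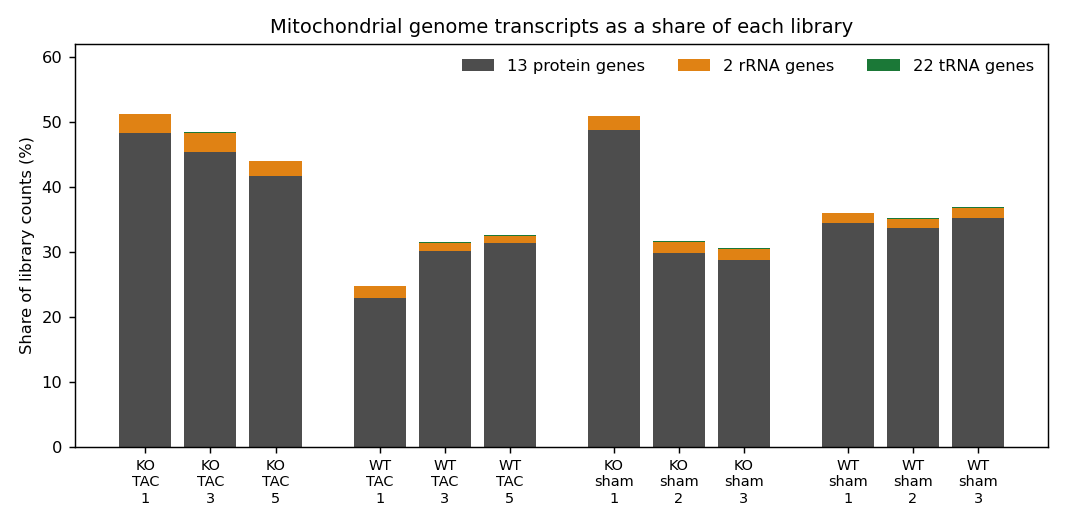
Share of all counts (vertical axis, percent) taken by the 13 protein, 2 rRNA and 22 tRNA genes of the mitochondrial genome, stacked, 1 bar per library. KO TAC libraries and KO sham replicate 1 reach 44.0 to 51.3%, the other 8 libraries 24.8 to 36.9%, and the tRNA part, at most 0.116%, is barely visible.

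The mean share was 47.9 ± 3.65% in KO TAC and 29.6 ± 4.20% in WT TAC libraries (SD, n = 3 each), a difference of 18.3 percentage points. This is larger than the spread within either group, and the exact two-sided permutation test gave p = 0.10, the smallest that 3 against 3 libraries allow. After sham surgery the mean was 37.7 ± 11.5% in KO and 36.0 ± 0.882% in WT libraries (SD, n = 3 each). KO sham replicates 2 and 3 alone averaged 31.1%, which turned the sign of that difference. TAC minus sham was 10.2 percentage points in KO, with overlapping groups (exact permutation p = 0.30, n = 3 each). It was −6.44 percentage points in WT, with separated groups (exact permutation p = 0.10, n = 3 each). These belong to a family of 84 relations, in which the smallest adjusted p was 0.28, so none could pass.

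A share is bounded, so the counts were also taken per count of all other genes. KO TAC libraries held 1.05, 0.937 and 0.787 mitochondrial counts per other count, against 0.329, 0.459 and 0.482 in WT TAC libraries. KO sham libraries held 1.04, 0.462 and 0.440, against 0.564, 0.542 and 0.585 in WT sham libraries. In this measure KO TAC hearts stood 2.20-fold above WT TAC hearts. TAC against sham gave 1.54-fold in KO hearts, or 2.04-fold without KO sham replicate 1, and 0.742-fold in WT hearts.

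The protein genes carried nearly all of this share. They took 48.2, 45.4 and 41.7% of the counts in KO TAC, against 22.9, 30.1 and 31.3% in WT TAC libraries, and 48.7, 29.8 and 28.7% in KO sham, against 34.4, 33.7 and 35.2% in WT sham libraries. The 2 rRNA genes took between 1.16 and 2.92% of the counts and the 22 tRNA genes between 0.0641 and 0.116%. RNA was selected by oligo(dT) before sequencing, and mature tRNAs and rRNAs are not made with long poly(A) tails, so levels of the 3 classes cannot be set against each other as amounts in the tissue.

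Each of the 13 protein genes had a higher mean CPM in KO TAC than in WT TAC hearts. mt-Nd1, a membrane subunit beside the quinone site of complex I, stood at 55387, 55403 and 50604 CPM in KO TAC against 32784, 40189 and 39736 CPM in WT TAC, and at 55859, 34074 and 33158 CPM in KO sham against 41765, 40422 and 43867 CPM in WT sham libraries. The KO TAC libraries lay above all WT TAC libraries, and the KO sham group spanned both. mt-Nd2, a proton-pumping membrane subunit, stood at 35157, 33826 and 31774 CPM in KO TAC against 13790, 22063 and 22879 CPM in WT TAC, and at 36275, 21997 and 20334 CPM in KO sham against 27868, 26541 and 25955 CPM in WT sham libraries. Here too KO TAC lay above WT TAC throughout, and every WT TAC library lay below every WT sham library. mt-Nd4, another pumping subunit, stood at 43840, 40830 and 35888 CPM in KO TAC against 28162, 32785 and 30950 CPM in WT TAC, and at 44585, 27300 and 25938 CPM in KO sham against 30390, 28614 and 32948 CPM in WT sham libraries. For mt-Nd4 the WT TAC range, 28162 to 32785 CPM, overlapped the WT sham range, 28614 to 32948 CPM.

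mt-Nd5, the pumping subunit at the far end of the membrane arm, stood at 37120, 33798 and 31578 CPM in KO TAC against 9243, 14851 and 16137 CPM in WT TAC, and at 38844, 25410 and 23078 CPM in KO sham against 28923, 30419 and 26497 CPM in WT sham libraries. WT TAC libraries were the lowest of the 12 for this gene, each of them below every WT sham library and every KO library. mt-Nd6, the only protein gene of the light-strand transcript, stood at 8239, 8321 and 7926 CPM in KO TAC against 5106, 5822 and 7692 CPM in WT TAC, and at 8356, 4662 and 3634 CPM in KO sham against 6866, 6555 and 7624 CPM in WT sham libraries. Its KO TAC libraries lay above all WT TAC libraries, by a narrow margin over WT TAC replicate 5. mt-Nd3 and mt-Nd4l are small membrane subunits of the same complex. mt-Nd3 stood at 2281, 1129 and 2923 CPM in KO TAC against 1591, 1026 and 811 CPM in WT TAC, and at 3018, 913 and 668 CPM in KO sham against 617, 1036 and 1031 CPM in WT sham libraries. mt-Nd4l stood at 1528, 662 and 502 CPM in KO TAC against 120, 454 and 482 CPM in WT TAC, and at 1203, 710 and 512 CPM in KO sham against 1023, 1078 and 1019 CPM in WT sham libraries. For mt-Nd3 the groups overlapped in all 4 comparisons. For mt-Nd4l the WT TAC libraries lay below all 9 others, the gap to KO TAC being as narrow as 482 against 502 CPM.

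mt-Cytb, the cytochrome b of complex III, stood at 86992, 80919 and 74059 CPM in KO TAC against 50145, 58887 and 59257 CPM in WT TAC, and at 85963, 49241 and 46526 CPM in KO sham against 59357, 55550 and 62998 CPM in WT sham libraries. Its KO TAC libraries lay above all WT TAC libraries. Complex IV, cytochrome c oxidase, has its catalytic core in mt-Co1, the most abundant member in CPM. mt-Co1 stood at 164301, 159678 and 146582 CPM in KO TAC against 57056, 95918 and 106076 CPM in WT TAC, and at 167316, 109749 and 111484 CPM in KO sham against 121670, 120694 and 121024 CPM in WT sham libraries. KO TAC lay above WT TAC throughout, WT TAC lay below WT sham throughout, and WT TAC replicate 1 was the lowest of the 12 libraries. mt-Co2, the subunit that takes electrons from cytochrome c, stood at 18066, 14558 and 14614 CPM in KO TAC against 10658, 9583 and 10470 CPM in WT TAC, and at 16201, 7219 and 7934 CPM in KO sham against 10289, 8907 and 12026 CPM in WT sham libraries. As for mt-Cytb, each KO TAC library lay above each WT TAC library. mt-Co3, the remaining core subunit, stood at 12811, 13590 and 10818 CPM in KO TAC against 11440, 11184 and 11132 CPM in WT TAC, and at 15486, 9409 and 7180 CPM in KO sham against 8623, 9039 and 9369 CPM in WT sham libraries. Its KO TAC range overlapped the WT TAC range, and each WT TAC library lay above each WT sham library.

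For ATP synthase, mt-Atp6 forms part of the proton channel and mt-Atp8 is a short subunit beside it. mt-Atp6 stood at 15835, 10560 and 9209 CPM in KO TAC against 8862, 8168 and 6868 CPM in WT TAC, and at 13331, 7010 and 6549 CPM in KO sham against 6404, 7741 and 7285 CPM in WT sham libraries. mt-Atp8 stood at 717, 366 and 447 CPM in KO TAC against 90.3, 256 and 470 CPM in WT TAC, and at 581, 102 and 105 CPM in KO sham against 180, 498 and 159 CPM in WT sham libraries. mt-Atp6 was higher in every KO TAC than in every WT TAC library, while the mt-Atp8 values overlapped in all 4 comparisons. The rRNA of the small ribosomal subunit, mt-Rnr1, stood at 9203, 9270 and 7225 CPM in KO TAC against 7533, 4386 and 4009 CPM in WT TAC, and at 6736, 5438 and 5148 CPM in KO sham against 4987, 3894 and 5354 CPM in WT sham libraries. The rRNA of the large subunit, mt-Rnr2, stood at 20038, 19810 and 15082 CPM in KO TAC against 10446, 8259 and 7578 CPM in WT TAC, and at 14687, 11977 and 12331 CPM in KO sham against 10564, 9344 and 10892 CPM in WT sham libraries. For mt-Rnr2 each KO TAC library lay above every other library of the 12. For mt-Rnr1 WT TAC replicate 1, at 7533 CPM, lay within the KO TAC range.

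**Figure D2:**
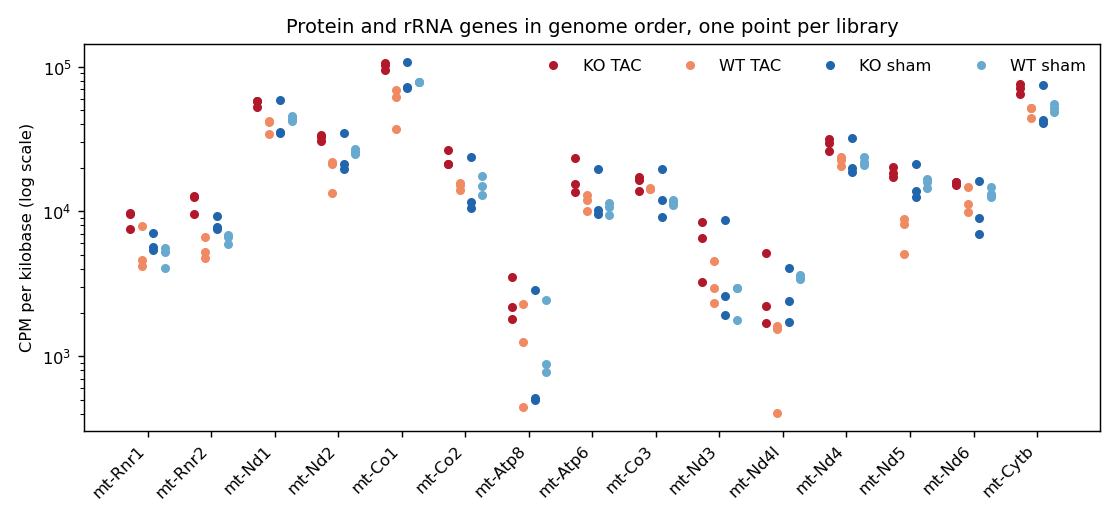
Level per kilobase of gene (vertical axis, CPM per kilobase, log scale) of the 13 protein and 2 rRNA genes in genome order, 1 point per library, coloured by group. mt-Co1 is highest on average at 79911 CPM per kilobase and mt-Atp8 lowest at 1622, and the WT TAC points of mt-Nd5 lie below all others of that gene.

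Levels differed widely among the protein and rRNA genes, all of which except mt-Nd6 are transcribed from the same strand. Per kilobase of gene, the means over the 12 libraries were 79911 CPM for mt-Co1, 56082 for mt-Cytb and 45563 for mt-Nd1. mt-Nd2 (25567), mt-Nd4 (24325), mt-Co2 (17120), mt-Nd5 (14432), mt-Co3 (13827), mt-Atp6 (13194) and mt-Nd6 (12974) followed. mt-Rnr2 (7954), mt-Rnr1 (6386), mt-Nd3 (4081), mt-Nd4l (2607) and mt-Atp8 (1622) were the lowest. mt-Cytb over mt-Nd1, mt-Nd1 over mt-Nd2 and mt-Nd4 over mt-Co2 kept their order in 12 of 12 libraries. mt-Atp6 was above mt-Nd6 in 6 of 12 libraries, mt-Co2 above mt-Nd5 in 8 and mt-Nd4l above mt-Atp8 in 9, and each of these pairs changed order between libraries of one group. In other pairs the order went with the group. mt-Nd2 was above mt-Nd4, and mt-Nd5 above mt-Co3, in all libraries except the 3 of WT TAC, and mt-Nd3 was above mt-Nd4l in all except the 3 of WT sham. These orders were not tested.

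Several of these levels are uncertain because near-identical nuclear copies of mitochondrial sequence were counted as genes of their own. Copies on chromosome 1 hold 99.5% of the stretches of 31 bases of mt-Co2 (copy Gm28661) and of mt-Atp6 (Gm10925), 99.9% of those of mt-Co3 (Gm28437), 98.1% of those of mt-Nd3 (Gm28438) and 98.9% of those of mt-Nd4l (Gm10222). Lesser parts of mt-Nd4 (Gm28439, 62.8%) and of mt-Co1 (Gm29216, 29.6%) are copied there. On chromosome 2, Gm13340 holds 45.2% of the stretches of mt-Co1, at 2441 to 11793 counts per library. Gm13341 on that chromosome holds 47.1% of those of mt-Co2, at 256 to 841 counts. Both are left out of the copy counts below. The chromosome 1 copies took 16.5 to 30.0% of the summed counts of mt-Co2 and its copy, 17.6 to 38.6% for mt-Atp6, 15.1 to 30.7% for mt-Co3, 6.67 to 51.6% for mt-Nd3 and 13.3 to 42.9% for mt-Nd4l. For mt-Co1 and mt-Nd4 they took at most 5.12% and 4.18%. With the copies added, the library share became 53.4, 49.8 and 45.4% in KO TAC against 25.8, 32.9 and 33.8% in WT TAC libraries. It became 52.8, 32.8 and 31.6% in KO sham against 37.5, 36.5 and 38.4% in WT sham libraries. mt-Atp8, which overlaps mt-Atp6, shares 7.47% of its stretches with Gm10925. The 5 other protein genes with no copy of more than 13.5%, mt-Nd1, mt-Nd2, mt-Nd5, mt-Nd6 and mt-Cytb, took 22.3, 21.2 and 19.6% of the counts in KO TAC against 11.1, 14.2 and 14.6% in WT TAC libraries.

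The tRNA genes spanned a wide range. mt-Tn and mt-Tp (proline, chrM:15356-15422, minus strand) averaged 270 and 268 CPM over the 12 libraries, mt-Tc 173 CPM, and the untested genes under 0.4 CPM. mt-Ta stood at 46.6, 92.8 and 64.03 CPM in KO TAC against 7.98, 3.30 and 3.22 CPM in WT TAC, and at 38.98, 4.87 and 4.72 CPM in KO sham against 4.003, 3.62 and 3.62 CPM in WT sham libraries. These rest on 788, 1313 and 962 counts in KO TAC against 133, 60 and 60 in WT TAC, and on 616, 110 and 89 in KO sham against 80, 81 and 75 in WT sham libraries. KO TAC libraries and KO sham replicate 1 were between 39.0 and 92.8 CPM, the other 8 libraries between 3.22 and 7.98 CPM. mt-Ta shares no stretch of 31 bases with another annotated transcript.

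The other tRNA genes of that cluster varied less between libraries. mt-Tn stood at 329, 286 and 279 CPM in KO TAC against 212, 200 and 227 CPM in WT TAC, and at 302, 224 and 179 CPM in KO sham against 354, 351 and 298 CPM in WT sham libraries. mt-Tc stood at 211, 174 and 172 CPM in KO TAC against 95.4, 123 and 111 CPM in WT TAC, and at 198, 221 and 200 CPM in KO sham against 198, 212 and 167 CPM in WT sham libraries. mt-Ty stood at 29.9, 25.1 and 26.6 CPM in KO TAC against 9.78, 13.9 and 11.8 CPM in WT TAC, and at 29.7, 23.8 and 27.2 CPM in KO sham against 18.1, 18.9 and 19.1 CPM in WT sham libraries. For mt-Tc and mt-Ty the WT TAC libraries were below all 9 others, and for mt-Tn they were below all KO TAC and WT sham libraries. mt-Tw, the neighbour on the other strand, stood at 17.7, 12.7 and 16.8 CPM in KO TAC against 7.86, 9.46 and 11.2 CPM in WT TAC, and at 20.3, 22.8 and 21.04 CPM in KO sham against 13.8, 13.9 and 12.7 CPM in WT sham libraries. mt-Tp stood at 355, 341 and 318 CPM in KO TAC against 237, 196 and 253 CPM in WT TAC, and at 311, 246 and 253 CPM in KO sham against 220, 226 and 259 CPM in WT sham libraries. Both were higher in every KO TAC than in every WT TAC library, and mt-Tw was lower in every KO TAC than in every KO sham library.

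Of the tRNA genes near the rRNA and mt-Nd1 genes, mt-Tl1, a leucine tRNA, stood at 61.5, 48.97 and 58.6 CPM in KO TAC against 23.1, 31.3 and 29.1 CPM in WT TAC, and at 67.1, 43.9 and 57.2 CPM in KO sham against 35.6, 36.5 and 32.1 CPM in WT sham libraries. mt-Tq stood at 6.68, 8.62 and 5.99 CPM in KO TAC against 2.46, 4.07 and 3.71 CPM in WT TAC, and at 6.58, 13.8 and 12.5 CPM in KO sham against 10.4, 8.93 and 7.78 CPM in WT sham libraries. mt-Tm, which serves both initiation and elongation in mitochondria, stood at 6.50, 6.22 and 3.59 CPM in KO TAC against 1.98, 2.53 and 1.34 CPM in WT TAC, and at 6.52, 11.7 and 10.5 CPM in KO sham against 5.45, 6.56 and 4.06 CPM in WT sham libraries. All 3 were lower in the WT TAC libraries than in the other 9, and mt-Tq and mt-Tm were highest in KO sham replicates 2 and 3. mt-Ti (isoleucine) stood at 2.13, 2.90 and 1.13 CPM in KO TAC against 0.960, 0.880 and 1.45 CPM in WT TAC, and at 1.46, 4.12 and 4.03 CPM in KO sham against 3.05, 2.41 and 2.32 CPM in WT sham libraries. mt-Te (glutamate) stood at 69.7, 61.1 and 60.9 CPM in KO TAC against 26.7, 63.6 and 49.5 CPM in WT TAC, and at 82.8, 57.3 and 71.4 CPM in KO sham against 58.1, 59.6 and 58.4 CPM in WT sham libraries. For mt-Ti each WT TAC library lay below each sham library, and for mt-Te the groups overlapped in all 4 comparisons.

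The remaining tRNA genes with a mean of at least 1 CPM were low. mt-Th (histidine) stood at 8.40, 6.01 and 6.46 CPM in KO TAC against 4.80, 8.03 and 4.51 CPM in WT TAC, and at 9.87, 7.08 and 6.995 CPM in KO sham against 7.36, 7.72 and 4.15 CPM in WT sham libraries. mt-Tl2, the second leucine tRNA, stood at 5.68, 3.11 and 4.73 CPM in KO TAC against 4.32, 6.21 and 4.62 CPM in WT TAC, and at 6.01, 3.05 and 4.29 CPM in KO sham against 3.55, 2.37 and 1.01 CPM in WT sham libraries. mt-Tr (arginine) stood at 3.25, 3.96 and 2.80 CPM in KO TAC against 2.82, 3.41 and 2.31 CPM in WT TAC, and at 6.01, 3.72 and 4.45 CPM in KO sham against 3.60, 2.37 and 2.17 CPM in WT sham libraries. At these levels single libraries rest on 21 to 173 counts, and the groups overlapped after TAC. mt-Tg (glycine) stood at 4.14, 2.12 and 3.33 CPM in KO TAC against 2.58, 3.52 and 2.26 CPM in WT TAC, and at 6.58, 4.07 and 2.70 CPM in KO sham against 2.75, 2.28 and 2.61 CPM in WT sham libraries. mt-Ts2, a serine tRNA, stood at 1.12, 0.919 and 1.33 CPM in KO TAC against 1.32, 1.82 and 0.591 CPM in WT TAC, and at 1.46, 0.929 and 0.689 CPM in KO sham against 1.15, 0.580 and 0.725 CPM in WT sham libraries. Reads were 150 bases long and the tRNA genes printed above 66 to 71 bases, so a whole read counted on one reaches into sequence beside it. How the counting treated such reads is not given.

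After TAC, 12 of the 31 tested members were higher in KO than in WT hearts and 0 were lower, at an adjusted p under 0.05 (edgeR quasi-likelihood test, Benjamini-Hochberg adjustment over 15804 genes). This is a share of 38.7% of the members, where 20.4% of all tested genes were called, 8.64% higher and 11.7% lower. The 12 were mt-Co1, mt-Nd5, both rRNA genes and 8 tRNA genes. mt-Nd5 was higher by 1.54 ± 0.34 on the log2 scale (SE, adjusted p = 0.021) and mt-Co1 by 1.05 ± 0.34 (adjusted p = 0.048). mt-Rnr2 was higher by 1.31 ± 0.24 (adjusted p = 0.0165) and mt-Rnr1 by 0.95 ± 0.28 (adjusted p = 0.0363). mt-Ta was higher by 4.07 ± 0.79 (adjusted p = 0.017), mt-Ty by 1.41 ± 0.21 (adjusted p = 0.0116) and mt-Tm by 1.72 ± 0.34 (adjusted p = 0.0171). mt-Tl1, mt-Tq, mt-Tw, mt-Tc and mt-Tp were higher by 1.22, 1.25, 0.92, 0.97 and 0.78, with adjusted p between 0.0165 for mt-Tl1 and 0.0304 for mt-Tp.

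All 31 fitted values were positive, from 0.046 for mt-Tl2 to 4.07 for mt-Ta, but with plain library totals mt-Tl2 stood at −0.16 and mt-Ts2 at −0.14. The median of the 13 protein genes was 0.85, beside −0.02 over all tested genes. The other 11 protein genes did not pass, with adjusted p of 0.0602 for mt-Nd2, 0.079 for mt-Nd4l, 0.0936 for mt-Nd1, 0.0938 for mt-Co2, 0.105 for mt-Atp6, 0.107 for mt-Cytb and 0.149 to 0.40 for the rest. In 20 members, 10 of them protein genes, every KO TAC library lay above every WT TAC library in CPM. That was so for 8.43% of all tested genes, while 34.9% were separated the other way. The calls depended on single libraries, among the members and over all genes. mt-Ty alone was called without KO TAC replicate 1, where 0.357% of all genes were called, and without KO TAC replicate 3, where 0.265% were. Without WT TAC replicate 3 it was mt-Tm and mt-Ty (0.523% of all genes), and without WT TAC replicate 5 mt-Tw and mt-Ty (1.02%). With KO sham replicate 1 left out, which enters through the shared spread, 23 members were called higher and 40.7% of all genes were called. With all libraries, DESeq2 called 19 members, where it called 30.2% of all genes, and limma-voom 20, where it called 48.2%.

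**Figure D3:**
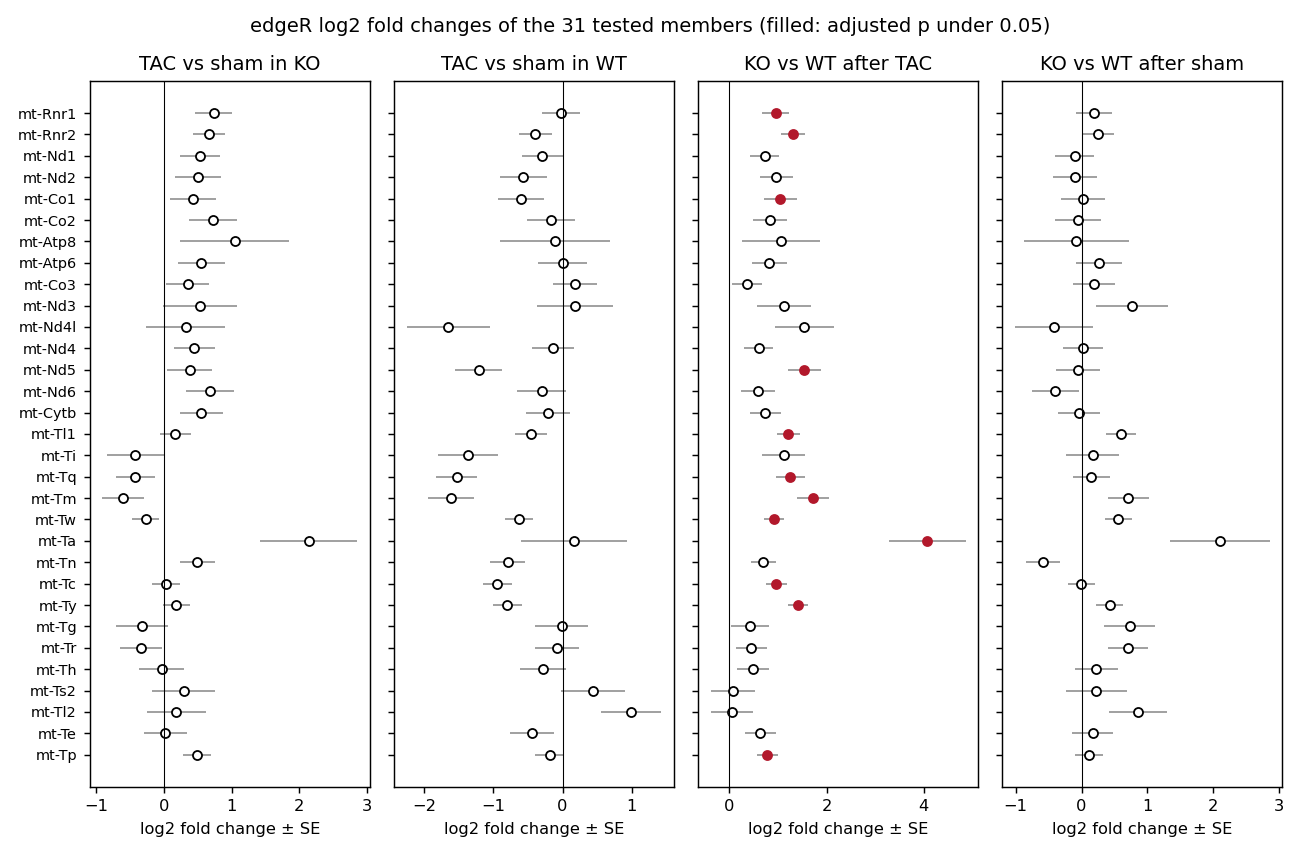
Fitted log2 fold changes ± SE (horizontal axes) of the 31 tested members, 1 row per gene, in 4 comparisons. Filled points passed at an adjusted p under 0.05: 12 in KO against WT after TAC, all to the right of 0, and 0 in the other 3 panels.

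TAC against sham in KO hearts gave 0 calls among the members and 0% of all tested genes in edgeR. At an unadjusted p under 0.05 there were 4 members, where 30.9% of all genes passed that mark, while DESeq2 called 2, where it called 12% of all genes, and limma-voom 22, where it called 63%. In 4 members every KO TAC library lay above every KO sham library, where 7.74% of all genes did, and in 2 every KO TAC library lay below, where 10.9% did. All 13 protein genes had positive values, with a median of 0.53 beside −0.02 over all genes. The smallest adjusted p was that of mt-Ta, at 0.107, with 2.14 ± 0.72. When KO sham replicate 1 was left out, 17 of 31 members were called higher and 0 lower, where 47.6% of all genes were called, 22.4% higher and 25.2% lower. The protein median was then 0.94. mt-Ta was then higher by 4.07 (adjusted p = 3.6e-05), mt-Co2 by 1.32 (adjusted p = 0.000478) and mt-Cytb by 1.01 (adjusted p = 0.00208). mt-Tm and mt-Tq stood at −0.76 and −0.63 and did not pass (adjusted p = 0.0566 and 0.0603, edgeR).

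TAC against sham in WT hearts also gave 0 calls among the members, where 0.0316% of all tested genes were called, 0.0253% higher and 0.00633% lower. At an unadjusted p under 0.05 there were 10 members, where 16.2% of all genes passed that mark, DESeq2 called 5, where it called 3.21% of all genes, and limma-voom 6, where it called 6.8%. Of the 31 members, 25 had negative values, and the protein median was −0.22 beside 0.01 over all genes. The lowest adjusted p were 0.0798 for mt-Tq, with −1.53 ± 0.30, and 0.0983 for mt-Tm, with −1.60 ± 0.33. mt-Nd5 stood at −1.21 ± 0.34 (adjusted p = 0.174), and mt-Nd4l at −1.65 ± 0.60 (adjusted p = 0.232). In 13 members every WT TAC library lay below every WT sham library in CPM, where 7.72% of all genes did, and in 2 members, mt-Co3 and mt-Tl2, every WT TAC library lay above, where 20.6% did. With that KO sham library left out, 7 members were called lower and 0 higher, where 6.53% of all genes were called, 3.14% lower and 3.4% higher. These included mt-Nd5 (adjusted p = 0.02), mt-Tq (0.00871), mt-Tm (0.0169), mt-Tc (0.0196), mt-Tn (0.0244), mt-Ty (0.0261) and mt-Ti (0.0423).

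KO against WT after sham surgery gave 0 calls among the members, where 0.00633% of all tested genes were called. At an unadjusted p under 0.05 there were 6 members, where 13.5% of all genes passed that mark, DESeq2 called 0, where it called 1.39% of all genes, and limma-voom 10, where it called 14.9%. In 6 members every KO sham library lay above every WT sham library, where 20.5% of all genes did, and in 0 every KO sham library lay below, where 3.92% did. The protein median was −0.05 beside 0.01 over all genes, and 0.03 beside 0.12 when library totals replaced the edgeR scaling, so its sign depends on the scaling. Leaving out KO sham replicate 1 gave −0.50, with 0 members called and 0.241% of all genes called, 0.0803% higher and 0.161% lower.

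The interaction subtracts the effect of TAC in WT from that in KO, and asks whether the genotypes responded differently. In edgeR 0 members and 0% of all genes were called. At an unadjusted p under 0.05 there were 10 members, where 9.19% of all genes passed that mark, DESeq2 called 2, where it called 0.613% of all genes, and limma-voom 19, where it called 31.8%. All 13 protein genes had positive values, except that mt-Co3 stood at −0.11 with plain library totals, and their median was 0.90 beside −0.07 over all genes. The smallest adjusted p was 0.406 for mt-Tn, with 1.29 ± 0.36. The fit without KO sham replicate 1 called 15 members, all of them higher, where 4.66% of all genes were called higher and 7.45% lower. The protein median was then 1.47. The comparisons share libraries, so their values for a gene are not independent.

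Changes here are on edgeR's TMM scale, which centres most genes near 0. With plain library totals the median of all genes moved to −0.19 for TAC in KO, 0.17 for TAC in WT, −0.24 for KO against WT after TAC, 0.12 after sham and −0.40 for the interaction. Relative to that median, the protein genes stood at 0.58, −0.25, 0.86, −0.10 and 1.01, close to 0.55, −0.23, 0.86, −0.06 and 0.96 on the TMM scale.

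Within the mitochondrial mRNAs, the shares of 7 of the 13 protein genes did not overlap between KO TAC and WT TAC libraries. The 13 shares are parts of one total, so a fall in one raises others and the 7 are not independent. Such shares were not taken for other genes, so no figure over all genes stands beside the 7. mt-Nd5 and mt-Co1 took a larger share in KO TAC, and mt-Nd1, mt-Nd4, mt-Nd6, mt-Co3 and mt-Cytb a smaller one. Of the counts of the 13 protein genes, mt-Nd5 took 7.70, 7.45 and 7.57% in KO TAC, against 4.04, 4.93 and 5.16% in WT TAC libraries. It took 7.98, 8.53 and 8.04% in KO sham, against 8.41, 9.02 and 7.53% in WT sham libraries. Each WT TAC library lay below all 9 others, and the KO TAC libraries lay below the KO sham libraries by less. The 95% Wilson interval of each of these shares was at most 0.0458 percentage points wide. The ratio of mt-Nd5 to mt-Nd4 counts was 0.847, 0.828 and 0.880 in KO TAC against 0.328, 0.453 and 0.521 in WT TAC libraries. It was 0.871, 0.931 and 0.890 in KO sham against 0.952, 1.06 and 0.804 in WT sham libraries. No nuclear copy of more than 12.8% of mt-Nd5 was annotated.

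mt-Co1 took 34.1, 35.2 and 35.2% of the mRNA counts in KO TAC against 24.9, 31.9 and 33.9% in WT TAC libraries. WT TAC replicate 1 stood well apart, and the KO sham libraries, at 34.4, 36.9 and 38.8%, overlapped WT sham, at 35.4, 35.8 and 34.4%. mt-Cytb took 18.0, 17.8 and 17.8% in KO TAC against 21.9, 19.6 and 18.9% in WT TAC, and 17.7, 16.5 and 16.2% in KO sham against 17.3, 16.5 and 17.9% in WT sham libraries. mt-Nd4 took 9.09, 9.001 and 8.61% in KO TAC against 12.3, 10.9 and 9.89% in WT TAC, and 9.16, 9.17 and 9.03% in KO sham against 8.84, 8.49 and 9.37% in WT sham libraries. mt-Co3 took 2.66, 2.996 and 2.60% in KO TAC against 4.99, 3.71 and 3.56% in WT TAC, and 3.18, 3.16 and 2.50% in KO sham against 2.51, 2.68 and 2.66% in WT sham libraries. mt-Nd1 took 11.5, 12.2 and 12.1% in KO TAC against 14.3, 13.3 and 12.7% in WT TAC, and 11.47, 11.4 and 11.6% in KO sham against 12.1, 11.99 and 12.5% in WT sham libraries. For mt-Co1, mt-Co3, mt-Cytb, mt-Nd1 and mt-Nd4 the WT TAC libraries lay to one side of all 9 others, with replicate 1 farthest out. By complex, the 7 complex I genes together took 37.4 to 40.0% in every library, complex IV 34.6 to 44.1%, complex III 16.2 to 21.9% and ATP synthase 1.91 to 3.91%. For the mt-Nd5, mt-Co1, mt-Co3, mt-Cytb, mt-Nd1 and mt-Nd4 shares the exact permutation test of KO TAC against WT TAC gave p = 0.10 each (n = 3 each; 0.28 adjusted over the family of 84).

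The light-strand mRNA mt-Nd6 took 1.71, 1.83 and 1.90% in KO TAC against 2.23, 1.93 and 2.46% in WT TAC libraries, with separated groups and exact permutation p = 0.10 (n = 3 each). It took 1.72, 1.57 and 1.27% in KO sham against 1.996, 1.94 and 2.17% in WT sham libraries. KO minus WT was −0.392 percentage points after TAC and −0.520 after sham, with each KO library below each WT library of the same operation. The strand setting is not given, so the mt-Nd6 counts may hold reads of the other strand. The rRNA genes took 5.70, 6.01 and 5.07% of all mitochondrial counts in KO TAC against 7.26, 4.02 and 3.56% in WT TAC, and 4.20, 5.51 and 5.72% in KO sham against 4.31, 3.77 and 4.40% in WT sham libraries. These groups overlapped in all 4 comparisons. The ratio of mt-Rnr2 to mt-Rnr1 counts was 2.18, 2.14 and 2.09 in KO TAC against 1.39, 1.88 and 1.89 in WT TAC, and 2.18, 2.20 and 2.40 in KO sham against 2.12, 2.40 and 2.04 in WT sham libraries. WT TAC lay below all 9 other libraries in this ratio.

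**Figure D4:**
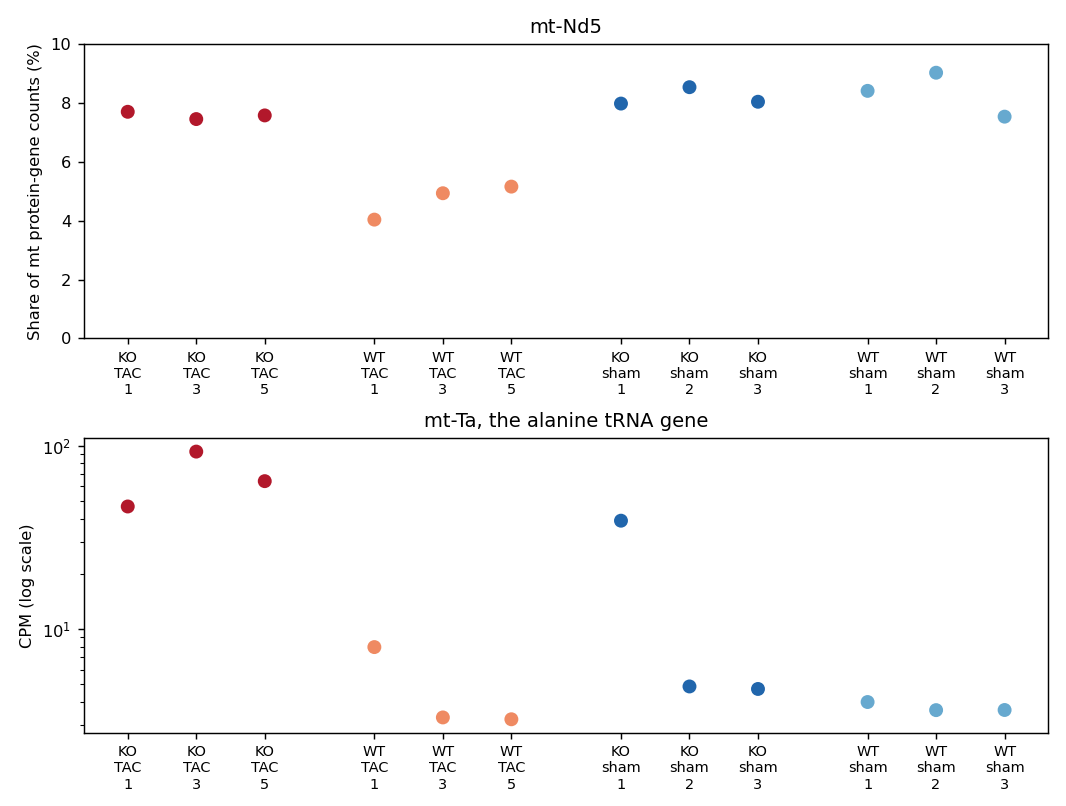
Upper panel, mt-Nd5 as a share of the counts of the 13 mitochondrial protein genes (percent), and lower panel, mt-Ta in CPM (log scale), 1 point per library. WT TAC libraries lie at 4.04 to 5.16% for mt-Nd5, below the other 9, and mt-Ta stands at 39.0 to 92.8 CPM in KO TAC libraries and KO sham replicate 1, against 3.22 to 7.98 CPM in the others.

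Balance was tested by repeating the edgeR fit with the total of the 13 protein genes as the library size, so that a shift of the whole pool cancels. In KO against WT after TAC, 1 member was called, where 49.9% of all tested genes were. mt-Ta stood higher by 3.03 ± 0.41 relative to the mRNA pool (adjusted p = 2.35e-10), and this call held when any one library was left out. This fit shares its spread with nuclear genes, so its p-values do not measure a member's own spread between libraries. The SE of mt-Ta was 0.79 in the main fit against 0.41 here. For mt-Nd5 in TAC against sham in WT it was 0.34 in the main fit against 0.515 here. In TAC against sham in KO, mt-Ta stood higher by 2.00 ± 0.39 (adjusted p = 1.74e-05), mt-Tm lower at −1.31 (adjusted p = 0.0105) and mt-Tq lower at −1.13 (adjusted p = 0.0233), where 26.6% of all genes were called. The calls of mt-Tm and mt-Tq were lost without KO TAC replicate 5 and without KO sham replicate 2 or 3, and that of mt-Tq also without KO TAC replicate 1 or 3. Leaving out KO sham replicate 1 put mt-Ta at 3.21 and 10 members were called, 2 higher and 8 lower, where 53% of all genes were. The counts of mt-Ta per count of its neighbour mt-Tn were 0.142, 0.325 and 0.230 in KO TAC against 0.0377, 0.0165 and 0.0142 in WT TAC libraries. They were 0.129, 0.0218 and 0.0263 in KO sham against 0.0113, 0.0103 and 0.0122 in WT sham libraries.

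In TAC against sham in WT, mt-Tl2 stood higher by 1.42 relative to the pool (adjusted p = 0.0302), where 5.78% of all genes were called, and mt-Nd5 at −0.82 did not pass (adjusted p = 0.303), nor did it in KO against WT after TAC at 0.69 (adjusted p = 0.249). This call of mt-Tl2 was lost without KO TAC replicate 3, WT TAC replicate 1 or 3, or any one WT sham library. The fit without KO sham replicate 1 called mt-Nd5 (−0.82, adjusted p = 0.0108) as 1 of 6 members, with mt-Nd4l, mt-Tm and mt-Tq also lower and mt-Co3 and mt-Tl2 higher, where 16.5% of all genes were called. KO against WT after TAC without that library gave mt-Nd5 higher by 0.69 (adjusted p = 0.00149), mt-Ty higher by 0.52 (adjusted p = 0.029) and mt-Co3 lower at −0.57 (adjusted p = 0.0109), where 61% of all genes were called. In KO against WT after sham, mt-Ta stood higher by 1.79 (adjusted p = 0.00402), where 0.588% of all genes were called. That call was lost without KO sham replicate 1 (0.59, adjusted p = 0.394, with 0.0247% of all genes called), without WT TAC replicate 1 or 5 and without any one WT sham library.

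Nuclear genes of mitochondria were mostly called lower where they were called in KO against WT after TAC. Among 29 genes of the machinery that transcribes, cuts and stabilises mitochondrial RNA, 3 were higher and 10 lower in KO than in WT hearts after TAC, with a median of −0.59. Slirp, a partner of Lrpprc in stabilising mitochondrial mRNAs, was lower by edgeR at −1.48 ± 0.29 (adjusted p = 0.017). Rexo2, an enzyme that degrades short RNAs, was lower at −0.67 ± 0.14 (adjusted p = 0.0191), and Mterf3, a regulator of mitochondrial transcription, was higher by 0.81 ± 0.16 (adjusted p = 0.0178). Of the nuclear subunits, 0 were higher and 11 of 36 lower in complex I, 3 of 9 in complex III, 4 of 11 in complex IV and 6 of 14 in ATP synthase, with medians of −0.33, −0.57, −0.17 and −0.42. All tested genes gave 20.4% called and a median of −0.02. With KO sham replicate 1 left out, 4 machinery genes were higher and 18 lower, 1 complex I gene was higher and 16 lower, and 5, 4 and 7 genes were lower in complex III, complex IV and ATP synthase, where 40.7% of all genes were called.

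The complex I genes with the smallest p were the subunits Ndufb6 at −1.07 (edgeR adjusted p = 0.0191), Ndufs3 at −1.03 (0.0214) and Ndufv2 at −0.99 (0.0226). In complex III, Uqcrc2, a core subunit, stood at −2.42 ± 0.59 (adjusted p = 0.0244), Uqcrb at −0.93 (0.0198) and Uqcrfs1, the iron-sulfur protein, at −0.72 (0.0485). In complex IV, Cox5a stood at −1.39 (edgeR adjusted p = 0.0223), Cox7c at −0.89 (0.0176) and Cox7b at −0.65 (0.0336). In ATP synthase, Atp5c1, the gamma subunit, stood at −1.38 (edgeR adjusted p = 0.0254), and Atp5g1 and Atp5g2, which encode its ring subunit, at −1.06 (0.0176) and −0.84 (0.0179). Leaving out KO sham replicate 1 kept every call of the 15 genes named here for this comparison, Slirp, Rexo2 and Mterf3 included, with edgeR adjusted p from 8.32e-05 for Atp5c1 to 0.00368 for Cox7b.

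In TAC against sham in KO, 0 genes of any of these lists were called with all libraries. Without KO sham replicate 1, 3 machinery genes were called higher and 17 lower (median −0.54), where 47.6% of all genes were called. The genes with the smallest p were Lrpprc, which stabilises mitochondrial mRNAs, at −1.58 (edgeR adjusted p = 0.00015), Tfam, which packages the mitochondrial genome and starts its transcription, at −1.35 (0.000479), and the nuclease Pde12 at −0.82 (0.00929). With all libraries these stood at −1.20 ± 0.36, −1.05 ± 0.29 and −0.71 ± 0.22, with an adjusted p of 0.103 each. The subunit lists split: 16 higher and 11 lower in complex I, 4 and 4 in complex III, 6 and 1 in complex IV and 5 and 6 in ATP synthase. Uqcrc2 stood lowest at −2.84 (edgeR adjusted p = 5.62e-05), while Uqcrq and Uqcr10 were higher by 1.24 and 0.93. Ndufs6, Ndufa3 and Ndufb11 were higher by 1.47, 1.40 and 0.82, Cox8b, Cox5b and Cox6c by 1.33, 1.14 and 0.89, and Atp5k, Atp5e and Atp5d by 2.28, 1.92 and 0.72. In TAC against sham in WT, 0 genes of these lists were called, with medians from −0.003 for the machinery to 0.46 for complex I. With KO sham replicate 1 left out, 4 of 36 complex I genes were called higher and 0 genes of the other lists, where 6.53% of all genes were called.

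Other measures also differed between the libraries, not all of them in step with the mitochondrial share. The summed level of 10 cardiomyocyte markers was 33886 to 41770 CPM in KO TAC against 62113 to 74732 CPM in WT TAC libraries. It was 28581 CPM in KO sham replicate 1 and 63174 and 64460 CPM in the other KO sham libraries, against 63620 to 65481 CPM in WT sham libraries. All 10 markers were detected, and 5 of 10 were called lower and 0 higher in KO against WT after TAC (7 lower when KO sham replicate 1 was left out), among them Actc1, the cardiac actin, at −1.84 ± 0.45 (edgeR adjusted p = 0.0243). Over all tested genes 11.7% were called lower, and 22.1% when that library was left out. A larger mitochondrial share lowers the CPM of all other genes in the same library. The 4 atrial markers Myl7, Myl4, Sln and Bmp10 summed to 1298, 292 and 979 CPM in KO TAC against 4.32, 9.73 and 2.63 CPM in WT TAC libraries. They summed to 1698, 234 and 174 CPM in KO sham against 19.9, 886 and 70.2 CPM in WT sham libraries. All 4 were called higher in KO against WT after TAC, with a median of 8.01 on the log2 scale, where 8.64% of all tested genes were called higher.

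**Figure D5:**
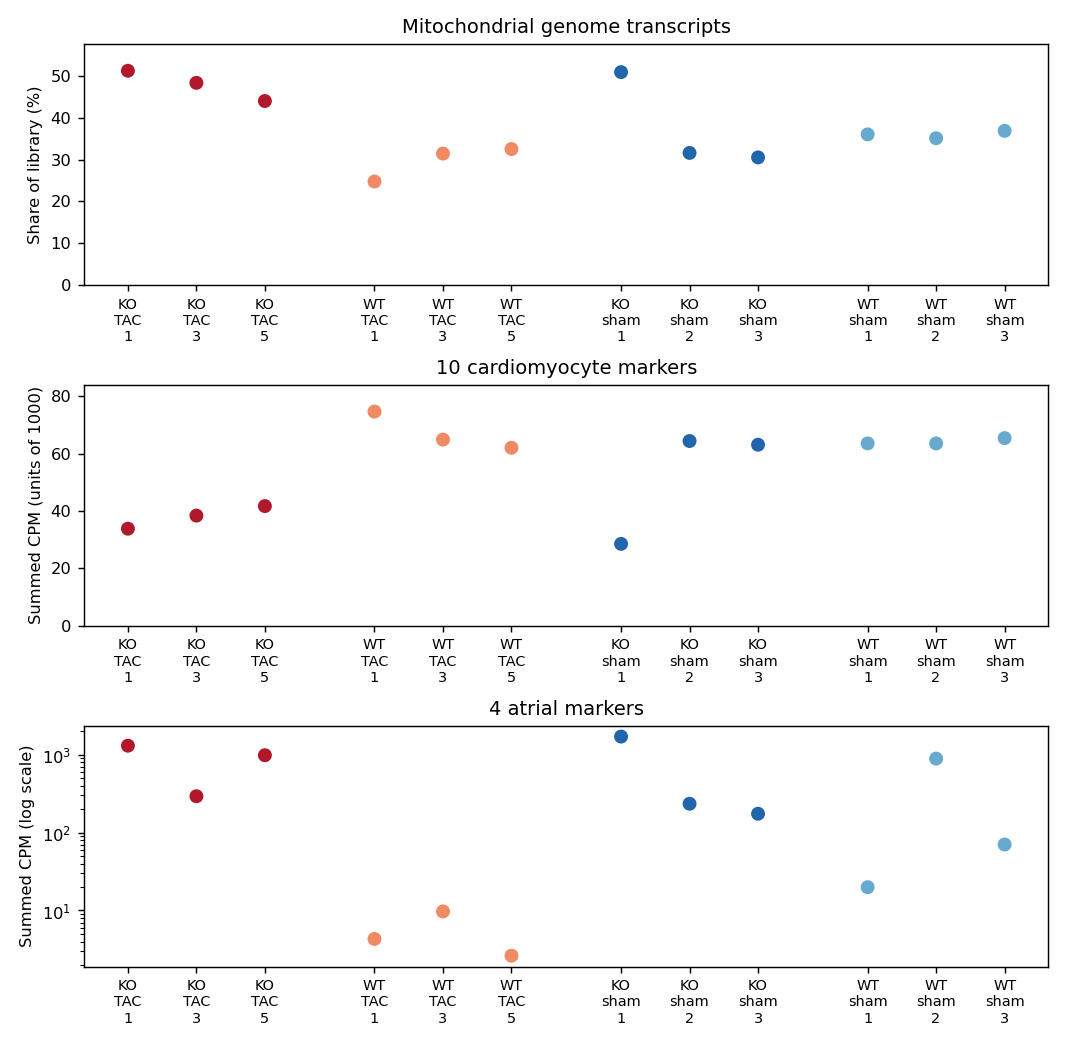
Mitochondrial share of the library (top, percent), summed CPM of 10 cardiomyocyte markers (middle, in units of 1000) and summed CPM of 4 atrial markers (bottom, log scale), 1 point per library. The 4 libraries with a share of 44.0% or more have 28581 to 41770 CPM of cardiomyocyte markers, the other 8 have 62113 to 74732, and WT TAC libraries have 2.63 to 9.73 CPM of atrial markers.

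The 3 adipocyte markers summed to 6.50 to 7.27 CPM in KO TAC against 0.060 to 0.495 CPM in WT TAC, and to 2.23 to 4.87 CPM in KO sham against 0.483 to 4.42 CPM in WT sham libraries. The brown adipocyte markers Ucp1, Cidea and Ppargc1a, of which heart muscle also expresses Ppargc1a, summed to 40.4 to 63.3 CPM in KO TAC against 98.5 to 123 CPM in WT TAC libraries. Fibroblast, endothelial, macrophage, smooth muscle, erythroid and skeletal muscle markers overlapped between KO TAC and WT TAC libraries. As intended signs of RNA quality, 74 histone genes summed to 94.8 to 124 CPM in KO TAC against 221 to 253 CPM in WT TAC libraries. They summed to 117 CPM in KO sham replicate 1 against 189 to 219 CPM in the other sham libraries of both genotypes. These genes were picked by the beginning of their symbols, which need not take in replication-dependent histones only. The nuclear transcripts Malat1, Neat1, Kcnq1ot1 and Meg3 summed to 3560 to 4969 CPM in KO TAC and 3336 CPM in KO sham replicate 1, against 4247, 2340 and 2349 CPM in WT TAC libraries. The other sham libraries lay between 1286 and 1666 CPM. Most of this sum was Neat1, at 3214 to 4551 CPM in KO TAC against 1410 to 3333 CPM in WT TAC libraries, while Malat1 stood at 292 to 533 CPM in KO TAC against 499 to 910 CPM in WT TAC libraries. The part of the cell type markers, the atrial tissue and the RNA quality signs in the mitochondrial share was not tested.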

How the data were processed

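The authors deposited 1 table of raw counts, whole numbers of reads for each gene in each of 12 samples, whose columns carry the sample titles. Per the labels' protocols, mRNA was selected with oligo(dT) beads, primed with random hexamers and read as 150 bp pairs. Per the submitters' processing notes HISAT2 was the aligner, with no version. The counting program, genome build and annotation are not stated in the sources used here. Of 55357 identifiers, 52081 matched a symbol, and unmatched ones stayed in the tests. The members and all lists were chosen with earlier results of these data known.

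CPM is counts per 1000000 counts of the library total. Fold changes and adjusted p are from edgeR (version 4.0.16, under R 4.3.3). Genes under the filterByExpr minimum were left out, libraries were scaled by TMM, and the model had 1 coefficient per group over all 12 libraries with a robust quasi-likelihood spread (8 residual degrees of freedom). The threshold was an adjusted p of 0.05 over 15804 genes. The balance fit used the total of the 13 protein genes as library size without TMM, with a spread shared with nuclear genes. Shares were compared by exact two-sided permutation in scipy 1.17.1. Both fits were run on simulated counts. For the balance fit these had the same fixed spread for every gene, so its behaviour under the spread of these data was not tested. Copies were found by shared stretches of 31 bases in GENCODE M21. Alternatives were DESeq2 1.42.0, limma 3.58.1 voom with sample weights, other scalings, no filter, the replicate number as a block, and libraries left out. All members are named. From each nuclear list the 3 genes with the smallest p in TAC against sham in KO and in KO against WT after TAC were named, and values without KO sham replicate 1 are given for the same genes. A count of 0 allows up to 3 counts, and intervals cover counting error only, since reads carry no molecular identifiers. No replicate pair agreed within counting noise, the closest differing by 8.66 times the Poisson variance.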

Additional observations from a re-analysis of the deposited data

Results flagged for a closer look

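The mitochondrial share of the library stood out because its mean moved in opposite directions with TAC in the 2 genotypes. TAC minus sham was 10.2 percentage points in KO and −6.44 percentage points in WT hearts, with each KO TAC library above the KO sham mean and each WT TAC library below the WT sham mean. The KO groups overlapped, with KO sham replicate 1 at 51.0% above KO TAC replicates 3 and 5 at 48.4 and 44.0%. The difference between the genotypes in the effect of TAC was not tested for the share.

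Opposite signs relative to the sham means were also seen in the CPM of 5 protein genes. The TAC and sham libraries of all 5 overlapped in KO, and those of mt-Cytb also in WT. For mt-Cytb, WT TAC replicate 5 at 59257 CPM lay just below the WT sham mean of 59301 CPM. Each TAC library was set against the sham mean, and the mean of the 3 log2 ratios was 0.39 in KO and −0.17 in WT for mt-Nd1, 0.36 and −0.49 for mt-Nd2, 0.27 and −0.54 for mt-Co1, 0.23 and −1.13 for mt-Nd5, and 0.41 and −0.08 for mt-Cytb. With all 12 libraries none of the 5 passed the interaction test of edgeR (adjusted p = 0.428 for mt-Nd5, 0.538 for mt-Nd2, 0.547 for mt-Co1, 0.573 for mt-Nd1 and 0.603 for mt-Cytb). Without KO sham replicate 1 all 5 passed (adjusted p = 0.00877 for mt-Nd5, 0.0148 for mt-Nd1, 0.0163 for mt-Cytb, 0.0195 for mt-Nd2 and 0.0352 for mt-Co1). That fit called 15 of 31 members and 12.1% of all genes. The 5 genes were picked for this pattern in the same libraries, so these tests give it no separate support.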

How the results depend on the processing

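The cause of the changes below was not tested. When each library was left out in turn, members called ran from 0 to 17 for TAC in KO, 0 to 7 for TAC in WT, 1 to 23 for KO against WT after TAC and 0 to 15 for the interaction, the highest each without KO sham replicate 1. The share of all genes called moved too. It ran from 0 to 47.6%, 0.00617 to 6.53%, 0.265 to 40.7% and 0 to 12.1% in the same order, and was also highest without that library. Protein medians ran from 0.31 to 0.94 for TAC in KO, −0.50 to 0.16 for KO against WT after sham and 0.69 to 1.47 for the interaction. Members out of balance ran from 1 to 10, 0 to 6, 1 to 4 and 0 to 1 in the 4 comparisons, in the order TAC in KO, TAC in WT, KO against WT after TAC and after sham. For balance, shares over all genes were taken only with all libraries and without KO sham replicate 1. They were 26.6, 5.78, 49.9 and 0.588% with all libraries, and 53, 16.5, 61 and 0.0247% without that library. Counts of members out of balance in other settings, here and below, have no such share beside them. Those counts cannot be read as particular to the members. With both KO sham replicate 1 and WT TAC replicate 1 left out, members called were 21, 6, 20 and 2 in these 4 and 18 in the interaction (55.5, 6.18, 53.8, 1.84 and 36.1% of all genes), members out of balance 13, 5, 7 and 10, and the protein medians 0.95, −0.48 and 1.23 for TAC in KO, KO against WT after sham and the interaction.

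DESeq2 called 2, 5 and 19 members for TAC in KO, TAC in WT and KO against WT after TAC, and 2 in the interaction (12, 3.21, 30.2 and 0.613% of all genes). limma-voom called 22, 6, 20 and 10 in the 4 comparisons and 19 in the interaction (63, 6.8, 48.2, 14.9 and 31.8% of all genes), with medians of 0.97 for TAC in KO, −0.51 for KO against WT after sham and 1.35 for the interaction. Without a filter on low counts, 3 members and 0.427% of all genes were called for TAC in WT. With all 37 members as library size, 0 were out of balance in KO against WT after sham.

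With the replicate number as a block, members called were 0 for TAC in KO, 0 for TAC in WT, 10 for KO against WT after TAC (15.3% of all genes), 0 after sham and 0 in the interaction, and members out of balance were 1, 0, 1 and 0. Libraries with the same number correlated at −0.19 to 0.06 in their deviations from group means, so the numbers do not pair the hearts. Of all values under an alternative, 287 stayed close to the value of the main setting and 59 moved. Close meant a count of calls that was equal or of similar size, or a median or share difference changed by less than the spread between libraries. A small median or difference could change sign and still count as close. The smallest exact p of 3 against 3 libraries is 0.10, so no test of a share passed, and the 6 untested tRNA genes held at most 86 counts each over the 12 libraries.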
